A study of Mus musculus with 23 samples.

Results

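The striatum of mice that carry the label Ezh1; Ezh2 Camk Cre (dKO) was compared with that of WT mice at 6 weeks of age, the earliest of 3 ages in the series. The comparison uses 3 dKO and 3 WT arrays, 6 of the 23 arrays deposited, and all 38143 of 45101 probe sets that carry 1 gene symbol, which stand for 20694 genes. The remaining arrays are 3 dKO and 4 WT at 3 months and 6 dKO and 4 WT at 6 months, and they entered the same fit. Controls are age- and sex-matched littermates, per the design text. Neither the exact alleles of Ezh1 and Ezh2 nor the exon removed is given in the labels. As background, Camk2a-driven Cre lines recombine mainly in forebrain neurons, so glia, vessels and much of the interneuron population would keep Ezh2 in such animals. RNA came from pieces of whole striatum, in which fewer cells of a type and less RNA per cell cannot be told apart.

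Polycomb repressive complex 2 (PRC2) contains either EZH1 or EZH2 as its enzyme, together with EED and SUZ12, and methylates histone H3 at lysine 27. This mark keeps genes of other lineages and stages silent, classically the Hox clusters, other developmental transcription factors and the cell-cycle inhibitor locus Cdkn2a. EZH2 is prominent in dividing cells and EZH1 in cells that no longer divide, such as the GABAergic medium spiny neurons that make up most of the striatum.

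The deposited values are log2 values centred per probe set across the series, so a value is a distance from that probe set's own centre and levels of different genes cannot be compared, nor can the presence of a striatal marker be read from them. A probe set was called when its dKO minus WT difference had a Benjamini-Hochberg adjusted p below 0.05 over all 38143 probe sets in limma's moderated test. All fold changes below are log2, dKO minus WT, ± the standard error of that fit, and every adjusted p is from it unless stated otherwise.

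Xist, which is transcribed from the inactive X chromosome, averaged 0.97 in dKO array 1, against -5.77 and -6.18 in dKO arrays 2 and 3 and -6.09, -5.93 and -5.81 in the WT arrays. The Y-linked gene Ddx3y went the opposite way, at -0.15 in dKO array 1 and 5.28 and 5.50 in dKO arrays 2 and 3, against 5.55, 5.39 and 5.46 in the WT arrays. One dKO animal therefore carries the female pattern while the other 5 animals carry the male one, which goes against the stated matching by sex at this age. The 3′ to 5′ differences of the actin and Gapdh control probe sets, the sex-linked genes and 13 gene lists gave 17 measures of array quality and tissue content. An exact two-sided permutation test of 3 against 3 arrays cannot go below p = 0.1, and 4 of the 17 measures reached that value with groups that did not overlap (adjusted p 0.425). They were the medians of the reactive astrocyte, activated microglia, oligodendrocyte precursor and thalamic or pallidal neuron lists, all higher in dKO.

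Ezh1 showed the largest fall among the called genes. The Ezh1 probe set with the largest change, its main one here, stood at -0.37, -0.62 and 1.47 in dKO arrays 1, 2 and 3, against 2.28, 2.28 and 2.07 in WT arrays 1, 2 and 3. The next one had -0.44, -0.69 and 0.89 in the dKO arrays, against 1.81, 1.62 and 1.92 in the WT arrays. On both, dKO arrays 1 and 2 were low, dKO array 3 lay between them and the WT arrays, and the groups did not overlap. All 4 Ezh1 probe sets fell, with differences of -2.05 ± 0.34, -1.86 ± 0.26, -1.50 ± 0.18 and -1.23 ± 0.22 (adjusted p 0.0105, 0.0016, 0.000193 and 0.0148). None of them was called with the 6 arrays of this age fitted alone. At the later ages the main probe set lay between -0.80 and 0.00 in all 9 dKO arrays and between 1.39 and 1.73 in all 8 WT arrays, so dKO array 3 at 6 weeks was the only one of 12 dKO arrays to hold an intermediate value.

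Ezh2, measured by 1 probe set, did not pass the test. It stood at 0.91, -0.11 and 0.81 in the dKO arrays, against 0.95, 1.09 and 0.75 in the WT arrays. Only dKO array 2 lay below all WT arrays, and the difference was -0.40 ± 0.20 (adjusted p 0.601). Its differences at 3 and 6 months, -0.45 and -0.43, were of like size and were not called either. Where the probe set lies relative to the deleted part is not stated, and cells outside the Cre driver's reach would keep the transcript, so this value does not check the Ezh2 genotype. No probe set of the other 10 measured PRC2 genes was called, where 0.202% of all probe sets were. Eed, Suz12, Rbbp4 and Rbbp7, which complete the core, had differences between -0.21 and 0.12 over their 13 probe sets.

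**Figure D1:**
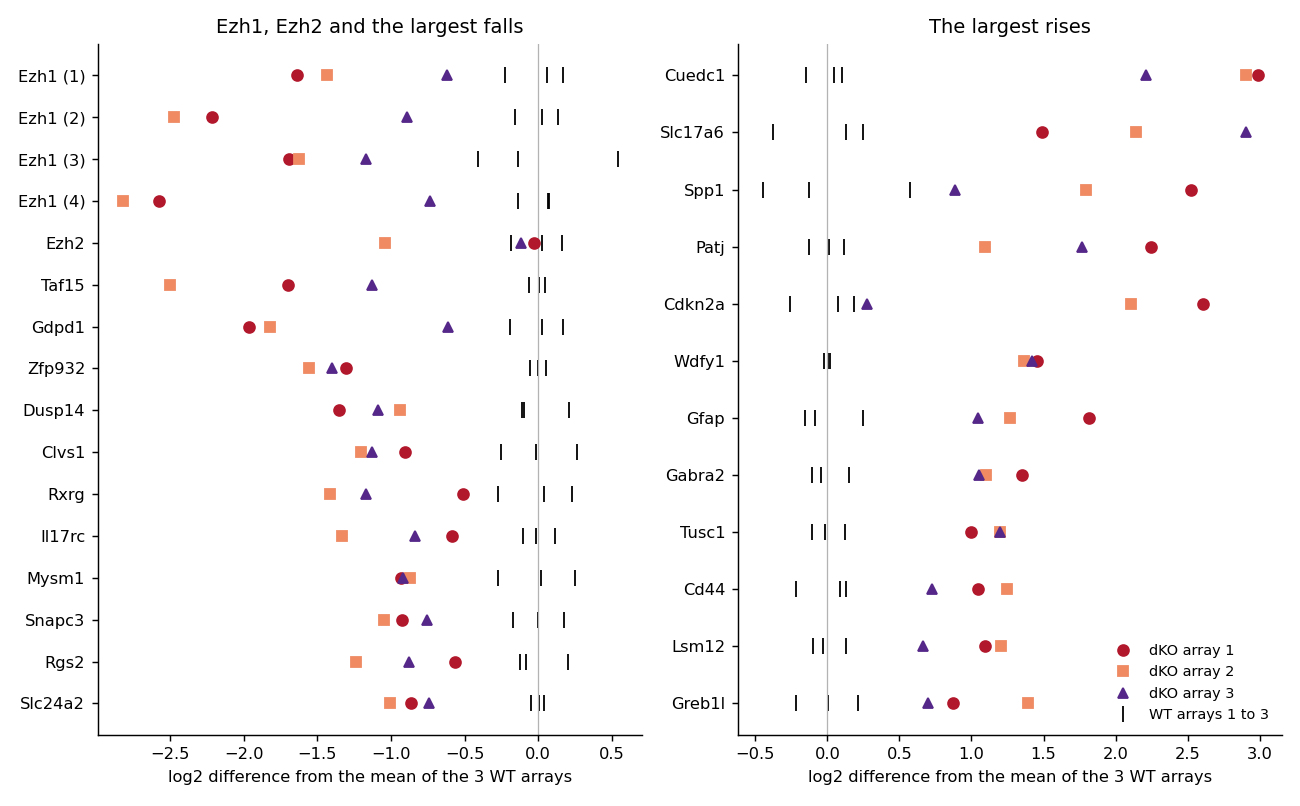
Log2 difference of each array from the mean of the 3 WT arrays at 6 weeks, for the 4 Ezh1 probe sets, Ezh2 and the largest falls (left panel) and the largest rises (right panel). Each coloured symbol is 1 dKO array and each black tick 1 WT array. dKO array 3 sits between the other dKO arrays and WT for Ezh1, Taf15, Gdpd1 and Cdkn2a, while it sits with them for Zfp932, Wdfy1 and Tusc1.

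Across all probe sets, 42 rose (34 genes) and 35 fell (30 genes) in dKO striatum at 6 weeks, together 0.202% of those tested (0.110% higher and 0.0918% lower). An unadjusted p below 0.05 was reached by 3303 probe sets (8.66%). Of the called probe sets, 17 rises and 10 falls were at least 2-fold. The groups did not overlap in any of the 77, but they also did not overlap in 17.5% of all probe sets. The same fit called 91 higher (0.239%) and 9 lower (0.0236%) at 3 months, together 0.262%, and 2905 higher (7.62%) and 3079 lower (8.07%) at 6 months, together 15.7%. These counts depended on single arrays. They were 169 higher and 239 lower without dKO array 1, 11 and 7 without dKO array 2, 74 and 21 without dKO array 3, 9 and 10 without WT array 1, 8 and 7 without WT array 2, and 30 and 20 without WT array 3. The sign of the 77 calls could not change in these 6 fits, because their groups do not overlap. With the 6 arrays of this age fitted alone, 8 probe sets were called higher and 4 lower.

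Among cell-cycle genes the call was Cdkn2a, which encodes the inhibitors p16Ink4a and p19Arf and is a classical Polycomb target. It stood at 0.96, 0.46 and -1.38 in the dKO arrays, against -1.91, -1.58 and -1.47 in the WT arrays. dKO arrays 1 and 2 were far above WT, and dKO array 3 was just above the highest WT array. Cdkn2a rose by 1.66 ± 0.35 (adjusted p 0.0471), a call that held in 6 of 18 alternative fits, and by 2.36 ± 0.21 without dKO array 3. It rose further at the later ages, by 2.31 at 3 months and 3.87 at 6 months, and the 6-week effect was smaller than the 6-month one by -2.20 ± 0.44 (adjusted p of the difference 0.0153). It was the only called member among 10 probe sets of 7 cyclin-dependent kinase inhibitor genes, while 0.202% of all probe sets were called. The list's median difference was 0.24, against -0.01 over all probe sets.

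Gfap and Cd44 rose among reactive astrocyte genes. Gfap, the intermediate filament protein that astrocytes build up in injury, had 0.45, -0.10 and -0.32 in the dKO arrays, against -1.12, -1.53 and -1.46 in the WT arrays on the most changed of its probe sets. All dKO arrays lay above all WT arrays. All 3 Gfap probe sets rose, by 1.38 ± 0.24, 1.21 ± 0.23 and 1.20 ± 0.18 (adjusted p 0.0151, 0.0272 and 0.00392). Cd44, a hyaluronan receptor of reactive astrocytes, was called on 2 of its 4 probe sets, with 0.54, 0.73 and 0.22 in the dKO arrays against -0.73, -0.42 and -0.39 in the WT arrays on the stronger one (1.01 ± 0.17, adjusted p 0.0124). The lowest difference among the 4 was -0.106. Of 41 reactive astrocyte probe sets, from 18 genes, 32 had a positive difference, against 48.0% of all probe sets, and the 5 of Gfap and Cd44 were called higher, against 0.110% of all. The list's median difference was 0.16. The list of general astrocyte markers (40 probe sets) held no call and had a median of 0.04. Gfap is itself on chromosome 11, 61 places from Ezh1 in gene order. At 3 months its probe sets had differences of 0.94, 0.74 and 0.68, none called. At 6 months 2 of its probe sets had differences of 0.04 and the third -0.06, none called. On the most changed of them the WT mean was -0.985 at 3 months and 0.196 at 6 months, and the dKO mean -0.048 and 0.233.

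Spp1, the secreted phosphoprotein osteopontin made by activated microglia among other cells, stood at 0.13, -0.60 and -1.50 in the dKO arrays, against -2.52, -2.84 and -1.82 in the WT arrays. The groups did not overlap, though dKO array 3 was close to the highest WT array. Spp1 rose by 1.73 ± 0.33 (adjusted p 0.0268). No other of 19 activated microglia probe sets was called (median 0.06), and none of 20 microglia probe sets was (median 0.09), where 0.202% of all probe sets were.

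Among neuronal genes, Slc17a6, the vesicular glutamate transporter VGLUT2 of thalamic and other subcortical neurons, showed the second largest rise. It had -0.25, 0.40 and 1.17 in the dKO arrays, against -2.12, -1.61 and -1.49 in the WT arrays. Here dKO array 3 was the highest and dKO array 1 the one nearest to WT. Both Slc17a6 probe sets rose, by 2.18 ± 0.37 and 2.11 ± 0.42 (adjusted p 0.0108 and 0.0341). Of 44 probe sets of thalamic or pallidal neuron markers, Slc17a6 included, 34 had a positive difference and 19 had dKO arrays above all WT arrays, against 7.43% of all probe sets. The list's median level was 0.04, -0.14 and 0.34 in the dKO arrays, against -0.39, -0.30 and -0.22 in the WT arrays. Adjacent tissue in the dissected pieces and expression within the striatum cannot be told apart here. With the median of the list's other members as a covariate, 23 probe sets were called higher and 30 lower.

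Gabra2, a GABA-A receptor subunit, rose on 2 of its 5 probe sets, with 0.34, 0.09 and 0.04 in the dKO arrays against -0.86, -1.12 and -1.06 in the WT arrays on the stronger one (1.17 ± 0.18, adjusted p 0.00392). All dKO arrays lay above all WT arrays. At 6 months both of those probe sets fell, with differences of -0.59 and -0.74. The lowest 6-week difference among the 5 was -0.025. Patj, a tight-junction scaffold protein, rose on 2 of its 4 probe sets, by 1.70 ± 0.33 and 1.33 ± 0.24 (adjusted p 0.0278 and 0.0214). The lowest difference among the 4 was -0.163. Bcl2l11, the pro-apoptotic BH3-only protein Bim, rose on 1 of its 5 probe sets, by 0.67 ± 0.13 (adjusted p 0.0331). The smallest difference among the 5 was 0.047, and the call held in 7 of 18 alternative fits. It was the single call among 83 p53 and cell death probe sets, against 0.202% called of all probe sets. Tusc1, a candidate tumour suppressor gene, rose by 1.13 ± 0.19 with all dKO arrays alike, between 0.85 and 1.06, against -0.24 to -0.02 in the WT arrays (adjusted p 0.0105). Greb1l, a gene needed for kidney development, rose by 0.99 ± 0.16 (adjusted p 0.0105) on 1 of its 2 probe sets, and the other differed by 0.041.

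Genes of medium spiny neurons were lower as a list, with few calls. Of 108 probe sets, 6 had a positive difference, 42 had dKO arrays below all WT arrays against 10.1% of all probe sets, and the median difference was -0.44. The called members were Rxrg and Foxp2, with 2 of the 108 probe sets, against 0.0918% of all probe sets called lower. Rxrg, the retinoid X receptor gamma of striatal neurons, stood at 0.57, -0.34 and -0.09 in the dKO arrays, against 1.12, 1.31 and 0.80 in the WT arrays, and fell, with a difference of -1.03 ± 0.22 (adjusted p 0.0474). Foxp2, a forkhead transcription factor, fell, with a difference of -0.69 ± 0.15 (adjusted p 0.0472). Without dKO array 3 neither was called, at differences of about the same size (-0.96 and -0.71, adjusted p 0.157 and 0.0972).

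The decrease was uneven between animals. The median level of the medium spiny neuron list was 0.26, -0.44 and -0.17 in the dKO arrays, against 0.34, 0.35 and 0.18 in the WT arrays. dKO array 1 lay within the range of the WT arrays, dKO array 2 was lowest, and dKO array 3 lay between these. The median of 27 cortical neuron probe sets ran the other way, at -0.39, 0.73 and 0.22 in the dKO arrays, against -0.20, -0.38 and 0.05 in the WT arrays. The part that tissue content plays in the decrease was not tested. At 3 months, with other animals, the medium spiny neuron list had a median difference of -0.02, and at 6 months of -0.50.

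**Figure D2:**
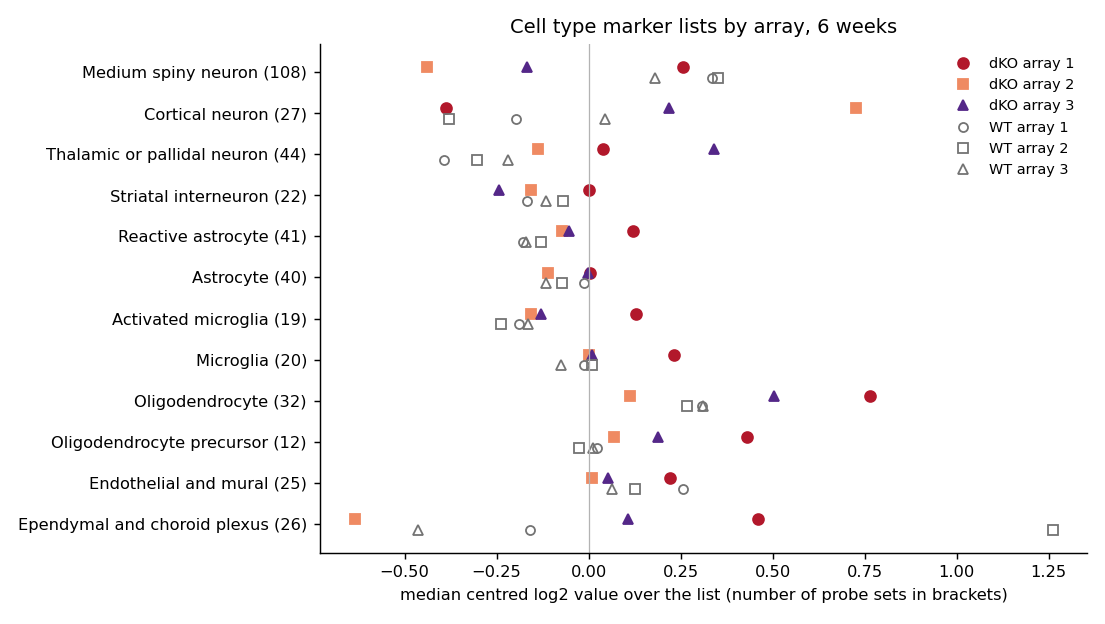
Median centred log2 value of 12 cell type lists in each array at 6 weeks, with dKO arrays as filled and WT arrays as open symbols. For medium spiny neurons dKO arrays 2 and 3 lie at -0.44 and -0.17, below all WT arrays, and for cortical neurons the same arrays lie at 0.73 and 0.22, above all WT arrays.

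Other falls were spread over unrelated genes. Zfp932, a zinc-finger protein gene, had 0.62, 0.37 and 0.53 in the dKO arrays, against 1.98, 1.93 and 1.87 in the WT arrays, and fell, with a difference of -1.42 ± 0.13 (adjusted p 3.22e-06). Rgs2, a regulator of G-protein signalling, also fell (-0.89 ± 0.17, adjusted p 0.026). Slc24a2, a potassium-dependent sodium-calcium exchanger of neurons, did too (-0.87 ± 0.15, adjusted p 0.0108). Clvs1, Il17rc and Mysm1, a histone H2A deubiquitinase, fell with differences of -1.08 ± 0.22, -0.92 ± 0.16 and -0.91 ± 0.17 (adjusted p 0.0341, 0.0109 and 0.0272). On the called probe sets of these 6 genes the dKO arrays lay below all WT arrays. Snapc3, a subunit of the small nuclear RNA activating complex, fell on 1 of its 4 probe sets (-0.91 ± 0.11, adjusted p 0.000488), while the one with the largest SD differed by 0.47. Of the other genes in this paragraph, Zfp932 has 1 probe set, and Rgs2, Slc24a2, Clvs1, Il17rc and Mysm1 were each called on 1 of several. The highest difference among a gene's probe sets was 0.025 for Rgs2, 0.061 for Clvs1, 0.142 for Il17rc and 0.065 for Mysm1. For Slc24a2 it was -0.311.

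For some called genes the WT arrays of 6 weeks stood further from the later WT arrays than the dKO arrays of 6 weeks did. Wdfy1, an endosomal adaptor protein, was at -0.33, -0.42 and -0.36 in the dKO arrays, against -1.78, -1.77 and -1.80 in the WT arrays of the same age, and averaged 0.12 ± 0.06 (SD) in the 8 later WT arrays. It rose on 3 of its 5 probe sets, by 1.41 ± 0.08 on this one (adjusted p 5.87e-10). The difference had the opposite sign at 6 months (-0.21, called lower). On this probe set the 6-week dKO arrays also lay below every later array, of which the lowest stood at -0.26. The 6-week WT and dKO means of Zfp932 were 1.93 and 0.51, against 0.074 ± 0.095 (SD) in the later WT arrays. On the most changed probe sets they were -1.74 and 0.44 for Slc17a6, against -0.046 ± 0.497. For Gabra2 they were -1.01 and 0.155, against 0.096 ± 0.218, and for Snapc3 0.639 and -0.269, against -0.008 ± 0.149. Over all 77 calls the dKO mean was nearer than the WT mean to the later WT arrays in 49, or 63.6% of the calls, against 52.6% of all probe sets. In the falls alone it was nearer in 25 of 35. These shares were not tested, and the comparison was chosen after values were seen.

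Genes that rise at the later ages were then looked at in the 6-week arrays. A set of 78 probe sets (66 genes) was called higher in dKO at both 3 and 6 months. Those calls rest on later animals, which share no array with 6 weeks although they share the fit's estimate of spread. At 6 weeks 6 of the 78 were called higher, against 0.110% of all probe sets. They were Cdkn2a, both Cd44 probe sets, Tunar, Cd83 and Tubb6. The median difference of the set was 0.47, 73 of 78 were positive against 48.0% of all probe sets, and 45 had an unadjusted p below 0.05 in the direction of a rise, against 4.14% of all.

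The 3 dKO animals differed in how far these genes had moved. The median difference from the WT mean over the 78 probe sets was 0.75 in dKO array 1, 0.40 in dKO array 2 and 0.10 in dKO array 3. dKO arrays 1, 2 and 3 lay above all WT arrays in 75, 67 and 38 of the 78, against 25.9%, 31.8% and 28.0% of all probe sets. dKO array 3, the array with the intermediate Ezh1 value, was the one nearest to the WT mean in 63 of 78, against 33.1% of all probe sets. dKO array 1, which also carries the high Xist value, was the highest in 60. Whether sex, remaining Ezh1 or another property of these 3 animals goes with this order cannot be told apart.

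**Figure D3:**
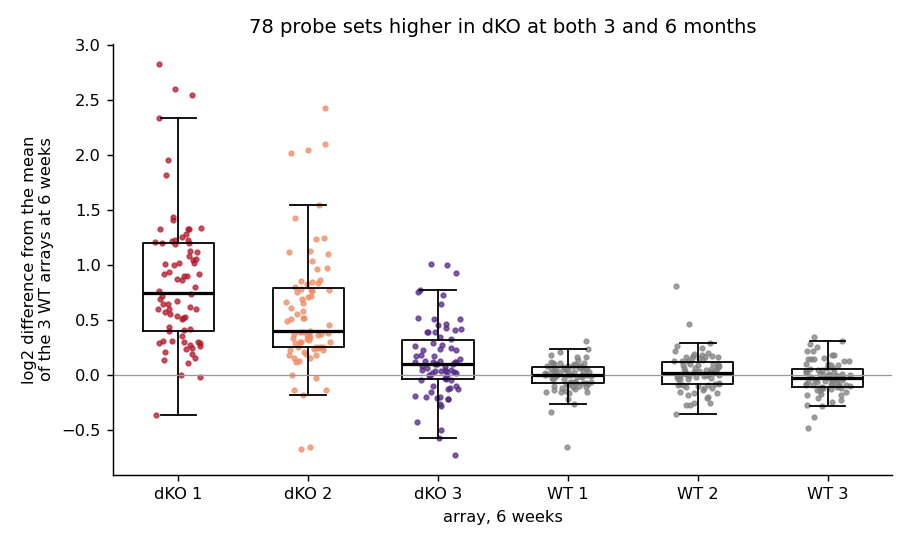
Log2 difference of each 6-week array from the mean of the 3 WT arrays for the 78 probe sets called higher in dKO at both 3 and 6 months. Points are probe sets, boxes span the quartiles, the thick line is the median and whiskers reach 1.5 times the box. The median is 0.75 in dKO array 1, 0.40 in dKO array 2 and 0.10 in dKO array 3, and the WT arrays lie around 0.

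The genes with the largest 3-month rises showed how single genes differ from that median order. The transcription factor gene Pou4f2, known for retinal ganglion cells, had 1.33, 0.42 and -0.59 in dKO arrays 1, 2 and 3, against -1.03, -0.98 and -1.02 in the WT arrays. All dKO arrays lay above WT, in steps, and the difference was 1.40 ± 0.30 (adjusted p 0.0607). Twist1, a basic helix-loop-helix factor of mesoderm, had 1.42, 2.02 and -0.22 in the dKO arrays, against -0.51, -0.30 and -0.40 in the WT arrays (1.48 ± 0.35, adjusted p 0.0925). Aldh1a2, which makes retinoic acid in embryos, had 0.69, 0.16 and -1.62 in the dKO arrays, against -1.86, -1.87 and -1.85 in the WT arrays (1.60 ± 0.41, adjusted p 0.129). dKO array 3 lay 0.42, 0.19 and 0.24 above the WT mean in Pou4f2, Twist1 and Aldh1a2. In each gene the other dKO arrays lay further above that mean.

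RefSeq's promoter windows of these 3 genes and of Cdkn2a show what kind of sequence lies at their starts, since PRC2 in mammals is found mostly at CpG-rich promoters. The windows run from 250 bases before to 50 after a gene's start on build GRCm38.p6, and every CG dinucleotide, which reads the same on both strands, is in capitals. Cdkn2a has separate starts for its transcripts, both shown.
Pou4f2: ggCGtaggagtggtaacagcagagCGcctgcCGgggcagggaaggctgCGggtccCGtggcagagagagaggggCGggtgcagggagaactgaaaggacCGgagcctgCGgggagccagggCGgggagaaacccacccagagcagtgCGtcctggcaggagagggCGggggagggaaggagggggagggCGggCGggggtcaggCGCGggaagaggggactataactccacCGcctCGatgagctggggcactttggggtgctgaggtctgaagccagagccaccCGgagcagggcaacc
Twist1: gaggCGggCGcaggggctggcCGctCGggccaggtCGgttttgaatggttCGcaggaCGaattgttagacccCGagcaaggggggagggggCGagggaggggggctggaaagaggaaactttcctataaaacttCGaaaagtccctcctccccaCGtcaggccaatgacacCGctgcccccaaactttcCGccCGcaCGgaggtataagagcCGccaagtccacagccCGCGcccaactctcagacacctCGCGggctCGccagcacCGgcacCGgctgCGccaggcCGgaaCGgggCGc
Aldh1a2: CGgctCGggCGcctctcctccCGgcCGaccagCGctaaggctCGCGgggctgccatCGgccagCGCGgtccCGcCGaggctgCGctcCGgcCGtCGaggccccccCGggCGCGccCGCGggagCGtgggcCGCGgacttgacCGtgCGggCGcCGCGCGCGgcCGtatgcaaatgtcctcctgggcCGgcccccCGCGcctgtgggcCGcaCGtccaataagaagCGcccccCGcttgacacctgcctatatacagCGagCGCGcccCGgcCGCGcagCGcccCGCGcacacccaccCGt
Cdkn2a first start: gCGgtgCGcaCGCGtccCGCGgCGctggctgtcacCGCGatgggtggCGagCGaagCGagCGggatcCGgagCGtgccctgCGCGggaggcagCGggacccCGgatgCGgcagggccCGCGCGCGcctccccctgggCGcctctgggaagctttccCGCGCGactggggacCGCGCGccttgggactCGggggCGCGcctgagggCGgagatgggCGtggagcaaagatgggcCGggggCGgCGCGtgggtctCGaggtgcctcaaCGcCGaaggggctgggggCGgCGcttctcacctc
Cdkn2a second start: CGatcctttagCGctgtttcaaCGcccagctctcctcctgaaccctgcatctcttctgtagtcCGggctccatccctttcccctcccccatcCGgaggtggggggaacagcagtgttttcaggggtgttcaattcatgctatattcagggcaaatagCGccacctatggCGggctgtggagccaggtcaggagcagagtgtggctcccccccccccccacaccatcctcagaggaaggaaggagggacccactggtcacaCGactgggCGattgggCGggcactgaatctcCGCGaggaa
Pou4f2 (chr8:78436598-78436897, minus strand) holds 18 CG, and 29.7% of the 32851 windows in the table hold at least as many. Twist1 (chr12:33957421-33957720, plus strand) holds 27, reached by 15.5%, and Aldh1a2 (chr9:71215539-71215838, plus strand) holds 50, reached by 0.9%. The windows of Cdkn2a (chr4:89294570-89294869 and chr4:89282143-89282442, minus strand) hold 45 and 12, reached by 1.9% and 39.6%. The median window holds 7. A window was found for 40 of the 66 late-rising genes, too few to compare the set, and a count of CG is a description of the sequence and not of binding.

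Calcr, the calcitonin receptor, varied within WT as well, with 1.42, 0.64 and -1.84 in the dKO arrays against -1.74, -0.60 and -1.90 in the WT arrays (1.48 ± 0.53, adjusted p 0.325). Hoxc8 had 0.56, 0.16 and -0.77 in the dKO arrays, against -0.68, -0.51 and -0.74 in the WT arrays (adjusted p 0.358), and Irx5 had 0.06, -0.67 and 0.13, against -0.90, -0.64 and -0.86 (adjusted p 0.299). In Calcr and Hoxc8 dKO array 3 was inside or below the WT range, while in Irx5 it was the highest array. Skor1, which rose by 2.29 at 3 months, and Wt1 had differences of 0.36 and 0.28 at 6 weeks (adjusted p 0.896 and 0.877).

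Without dKO array 3, 24 of the 78 probe sets (21 genes) were called higher, where that fit called 74 of all 38143 higher. The 24 included Calcr (2.44 ± 0.38, adjusted p 0.00367), Aldh1a2 (2.29 ± 0.33, adjusted p 0.00222), Twist1 (2.13 ± 0.24, adjusted p 8.69e-05), Pou4f2 (1.88 ± 0.25, adjusted p 0.000892) and Hoxc4 (1.60 ± 0.27, adjusted p 0.00805), each from 2 dKO arrays against 3 WT arrays. Without dKO array 1 there were 4, without dKO array 2 there were 0, and without WT array 1, 2 or 3 there were 0, 0 and 1. Over all probe sets, leaving out dKO array 3 kept 53 of the 77 calls, ended 24 and added 42. That fit held 74 rises and 21 falls.

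The wider lists of silenced developmental genes held no call with all 6 arrays. As 0.110% of all probe sets were called higher, no call in lists of this size does not set them apart. Of 51 Hox probe sets, 36 had a positive difference (median 0.10), and the largest was Hoxc4, with 0.78, 0.06 and -0.67 in the dKO arrays against -1.17, -1.53 and -0.83 in the WT arrays (1.23 ± 0.28, adjusted p 0.0784). Of 190 probe sets of other developmental transcription factors, 123 were positive (median 0.06). Of all probe sets, 48.0% were positive. At 6 months 39 of the 51 and 86 of the 190 probe sets were called higher, against 7.62% of all.

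Among all 77 calls dKO array 3 was the dKO array nearest to the WT mean in 36, against 33.1% of all probe sets. In the rises it was the nearest in 26 of 42 and in the falls in 10 of 35, while dKO array 1 was the nearest in 19 of the 35 falls, against 40.9% of all probe sets. The median difference from the WT mean over the rises was 1.01, 1.04 and 0.71 in dKO arrays 1, 2 and 3, and over the falls it was -0.58 in array 1 and -0.67 in array 3, with array 2 the lowest. dKO array 3 was thus the mildest of the dKO arrays for rises, and dKO array 1 for falls.

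Chromosome 11, where Ezh1 lies, held a larger share of the calls than of the probe sets. It carried 20 of the 75 called probe sets that could be placed, 4 of them Ezh1. Without Ezh1 it held 16 of 71 (22.5%), in 13 of 61 genes, while it holds 7.80% of placed probe sets. The share was near the latter in 3 alternative fits, at 8.25% of 388 calls without dKO array 1, 8.33% of 12 with the 6 arrays alone and 7.06% of 4633 with array weights. With 1 array left out at a time, the count with Ezh1 ranged from 5 without WT array 2 to 36 without dKO array 1. It was 1 with the 6 arrays alone and 331 with array weights. Called were 0.584% of its probe sets without Ezh1, against 0.169% on the other chromosomes. Groups that do not overlap were about as frequent on it, at 18.6% without Ezh1, as on the other chromosomes, at 17.8%. At the later ages the called shares on and off the chromosome were nearer to each other, with 0.292% against 0.271% at 3 months and 18.3% against 16.3% at 6 months. No probe set within 50 places of Ezh2 on chromosome 6 was called (0.00% of 197).

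The chromosome 11 calls were not evenly placed. In the order of the chromosome's genes, the 100 genes 201 to 300 places before Ezh1 held 7 called probe sets in 6 genes (3.47% of 202), and the 100 genes just after Ezh1 held 5 in 3 genes (2.53% of 198). The first stretch comprised Taf15, Dusp14, Ppm1d, Gdpd1, Cuedc1 and Dgke, and the second Meox1, Lsm12 and Gfap. The 200 genes before the first stretch and all genes more than 100 places after Ezh1 held none.

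**Figure D4:**
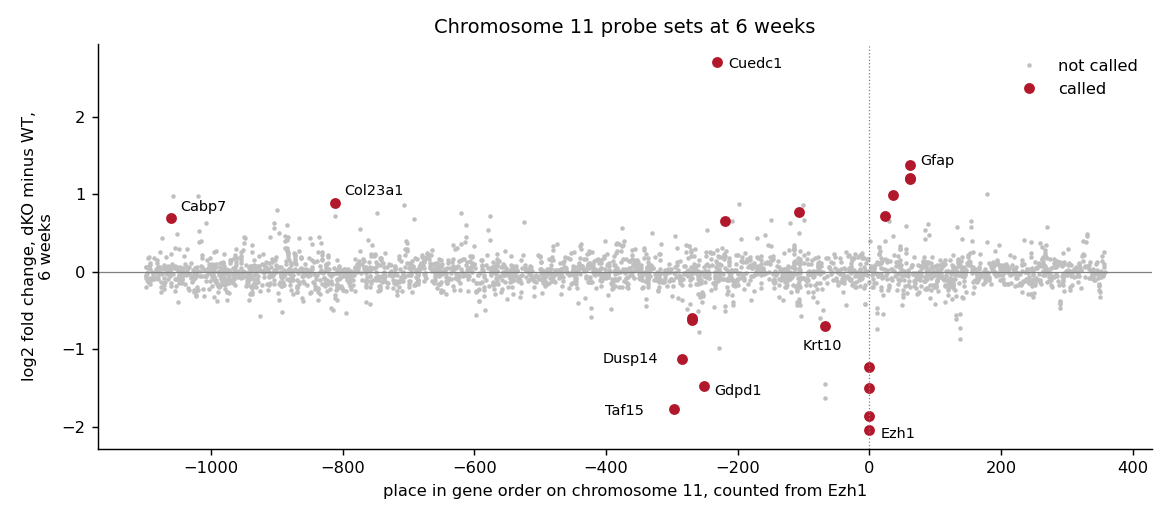
Log2 fold change at 6 weeks, dKO minus WT, of every placed chromosome 11 probe set by its gene's place in gene order counted from Ezh1 (negative, before Ezh1). Called probe sets are red. They gather 201 to 300 places before Ezh1, at Ezh1 and within 100 places after it, with both directions present.

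In the first stretch, Cuedc1, which encodes a CUE-domain protein, showed the largest rise of all genes, on 1 of its 3 probe sets. That one stood at 0.74, 0.66 and -0.04 in the dKO arrays, against -2.40, -2.20 and -2.14 in the WT arrays (2.70 ± 0.21, adjusted p 2.64e-07), while the smallest difference among its probe sets was 0.11 and their mean differed by 1.03. Taf15, an RNA-binding protein of the FET family, had -0.15, -0.96 and 0.42 in the dKO arrays, against 1.59, 1.49 and 1.55 in the WT arrays (-1.78 ± 0.36, adjusted p 0.0343), and its other probe set differed by -0.017. Gdpd1, a lysophospholipase D, had -1.04, -0.90 and 0.31 in the dKO arrays, against 0.73, 0.95 and 1.09 in the WT arrays (-1.47 ± 0.30, adjusted p 0.0387), and its other probe set differed by 0.056. On the called probe set of each of these genes dKO array 3 lay between the other dKO arrays and WT, as it did for Ezh1.

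Dusp14, a dual-specificity phosphatase, had -0.30, 0.12 and -0.03 in the dKO arrays, against 0.95, 1.27 and 0.96 in the WT arrays (-1.13 ± 0.19, adjusted p 0.0105). Ppm1d, the phosphatase Wip1 that turns off p53 signalling, had 0.14, -0.12 and 0.09 in the dKO arrays, against 0.70, 0.67 and 0.60 in the WT arrays (-0.62 ± 0.09, adjusted p 0.0027), and its second probe set fell too (-0.59 ± 0.12, adjusted p 0.0341). Here the dKO arrays lay together, dKO array 3 among them. Dgke, a diacylglycerol kinase, had 0.00, 0.37 and -0.09 in the dKO arrays, against -0.62, -0.63 and -0.45 in the WT arrays (0.66 ± 0.13, adjusted p 0.0386). That was 1 of 3 Dgke probe sets, another differed by -0.50, and the direction reversed with the largest-SD probe set (-0.44) and with the mean of probe sets (-0.093). Over the 16 chromosome 11 calls without Ezh1, dKO array 3 was the nearest to WT in 11, and over the 57 called probe sets without Ezh1 not placed on chromosome 11 in 21.

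After Ezh1, Meox1, a mesoderm homeobox gene, rose by 0.72 ± 0.14 and Lsm12, an Sm-like protein gene, by 0.99 ± 0.19 (adjusted p 0.0341 and 0.0295). Between the stretches, Med1, a Mediator subunit, rose and Krt10, a keratin gene, fell, with differences of 0.77 ± 0.15 and -0.71 ± 0.15 (adjusted p 0.0341 and 0.0475). The Med1 call was 1 of 7 probe sets, which reached down to -0.39 and whose mean differed by 0.042. Far from Ezh1, Col23a1, a transmembrane collagen, rose by 0.89 ± 0.18 and Cabp7, a calcium-binding protein, by 0.69 ± 0.14 (adjusted p 0.0387 and 0.0343). The groups did not overlap on the called probe sets of these 6 genes.

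At the later ages the levels of the first stretch did not always follow the genotype label. At 3 months Gdpd1 stood at 0.46, -0.65 and 0.46 in the dKO arrays, against 0.41, 0.58, 0.52 and -0.45 in the WT arrays. Cuedc1 stood at -0.17, 0.53 and -0.17 in the dKO arrays, against -0.37, -0.43, -0.41 and 0.44 in the WT arrays. Taf15 stood at 0.23, -0.88 and 0.66 in the dKO arrays, against 0.18, 0.59, 0.53 and -0.60 in the WT arrays. In each gene dKO array 2 and WT array 4 of that age shared one level and the other 5 arrays the opposite one, while the most changed Ezh1 probe set was low in all 3 dKO arrays and high in all 4 WT arrays.

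At 6 months the same genes separated by label. Gdpd1 lay between -1.07 and -0.79 in the 6 dKO arrays and between 0.00 and 0.38 in the 4 WT arrays, and fell (-1.14). Cuedc1 lay between 0.65 and 0.95 in the dKO arrays and between -0.24 and 0.00 in the WT arrays, and rose by 0.94. Taf15 fell (-1.05), with dKO array 2 at -0.15 and the other dKO arrays between -1.06 and -0.86, against 0.00 to 0.64 in the WT arrays. Msi2, an RNA-binding protein gene 228 places before Ezh1 that was not called and was chosen after its values were seen, had -1.10, -1.10 and 0.41 in the 6-week dKO arrays, against 0.33, 0.30 and 0.53 in the WT arrays, so that dKO array 3 lay inside the WT range. Which parental chromosome segments each animal carries was not measured, and effects of such segments and of PRC2 loss cannot be told apart for these genes.

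**Figure D5:**
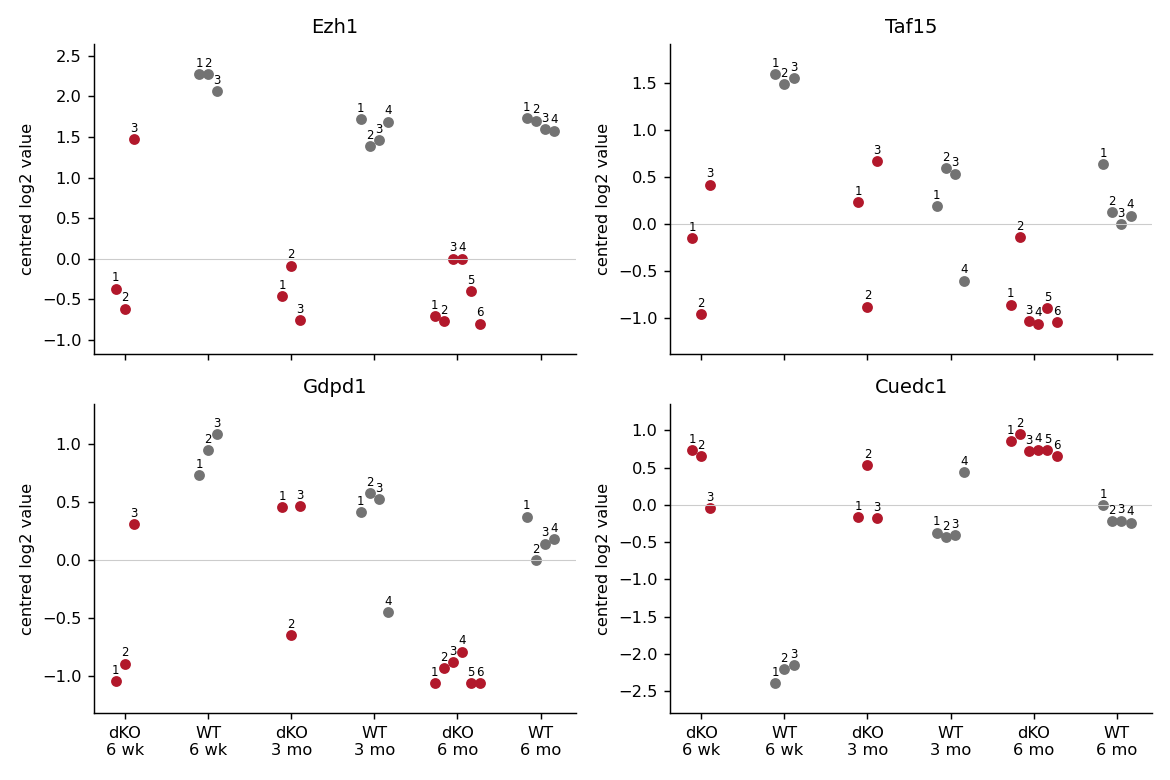
Centred log2 value of Ezh1 (its most changed probe set), Taf15, Gdpd1 and Cuedc1 in all 23 arrays, by group, with the array's number above each point (dKO in red, WT in grey). Ezh1 separates dKO from WT at every age, while for the other 3 genes dKO array 2 and WT array 4 at 3 months share a level that differs from the remaining arrays of that age.

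Of the 16 chromosome 11 calls without Ezh1, 9 were called in the same direction at 6 months and 0 at 3 months. For the 57 others the numbers were 32 and 7. Of all probe sets, 15.7% were called in either direction at 6 months and 0.262% at 3 months. The difference between 0 of 16 and 7 of 57 was not tested. Chromosome 11 genes called in 1 direction at both later ages, other than Ezh1, included the following, none called at 6 weeks. The differences were 0.20 for the T-box factor Tbx2, 0.66 and 0.21 for the 2 probe sets of Pnmt, -0.24 for the Wnt receptor Fzd2 and -0.43 for Gm11627.

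Of all 42 rises at 6 weeks, 7 were called higher at 3 months, against 0.239% of all probe sets, and 22 at 6 months, against 7.62%, while 3 were called lower at 6 months. Of the 35 falls, 3, all of Ezh1, were called lower at 3 months, against 0.0236% of all, and 23 at 6 months, against 8.07%. Called in the same direction at every age were 9 probe sets of 6 genes: 3 of Ezh1, both Cd44 probe sets, Cdkn2a, Tunar, Cd83, a surface protein of activated immune cells, and the tubulin gene Tubb6. When the dKO effects of the ages were set against each other in the same fit, 4 probe sets differed between 6 weeks and 3 months (0.0105%), namely Irx5, Zfp932, Wdfy1 and Cuedc1. Between 6 weeks and 6 months 271 differed (0.710%), of which the 6-week effect was the lower in 171 and the higher in 100, and 18 of the 271 were called at 6 weeks. The 6-month arrays outnumber those of 6 weeks, and without WT array 2 of 6 weeks the 271 became 146.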

How the data were processed

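Striatal RNA of 23 mice was measured on Affymetrix arrays, 1 array each. The authors deposited log2 values. RMA is named in the submitters' processing notes without a version, and no source used here gives the array design, annotation release or genome build. In 87.9% of probe sets an array stands at exactly 0, so each probe set was centred, which removes levels and keeps differences. Values came from the series matrix. The normalized table, from which the gene symbols come, was identical in 21 columns, and 2 further columns that share a name were not used. The arrays left without an identified column there were WT arrays 2 and 3 of 6 weeks. Their values were thus not checked against that table. Symbols and gene order came from RefSeq's gene table of GRCm38.p6, which held 88.62% of the 20694 genes. The number of arrays limits the precision. No array repeats another, the closest pair having a median absolute difference of 0.104.

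With limma 3.58.1 (lmFit, eBayes), a mean for each of the 6 groups of genotype and age was estimated from the 23 arrays under R 4.3.3 (17 residual and 4.77 prior degrees of freedom), so that the spread is shared over ages, and p-values were adjusted by Benjamini-Hochberg over 38143 probe sets. The code was tested on simulated data. Exact permutation tests used scipy. The design text states biological replicates. Replicate numbers did not pair the animals (correlations of the deviations of same-numbered dKO and WT arrays 0.06, -0.37 and 0.15). Named genes are all PRC2 probe sets, the 12 largest rises and 12 largest falls with groups that do not overlap, all calls on chromosome 11 or within 50 places of Ezh2, genes with at least 2 called probe sets, up to 4 called members (or else the largest change) of each list, and the 10 largest 3-month rises among genes also called at 6 months. A few genes that this rule names are not reported here. The members, lists and tests were chosen with earlier results of these data known. Alternatives covered normalization, the fit, covariates, a replicate block, the choice of probe set, a filter on variation and each left-out array. A thalamic marker covariate and all settings for the late-rising genes were added and chosen after seeing the data.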

Additional observations from a re-analysis of the deposited data

Results flagged for a closer look

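The dKO effect differed between ages, by a contrast of the 2 effects in the limma fit (adjusted p below 0.05 over all probe sets), for 26 differences among 104 probe sets looked at. Against 3 months the 6-week effect differed by 2.44 for Cuedc1, 1.45 for Wdfy1, -1.24 for Zfp932 and -1.99 for Irx5 on the log2 scale. Against 6 months the 6-week effect was the higher one for called genes of 6 weeks, by 1.76 for Cuedc1, 1.62 for Wdfy1, 1.34 for Gfap, 1.76 for Gabra2, 1.25 for Gfap, 1.47 for Wdfy1, 1.499 for Wdfy1 and 1.84 for Gabra2. It was the lower one, with differences of -2.20 for Cdkn2a, -0.88 for Zfp932, -0.90 for Snapc3, -0.62 for Ppm1d and -0.68 for Ppm1d, for genes called at 6 weeks. It was also lower for genes not called at 6 weeks, with differences of -0.58 for Phf1, -2.90 for Twist1, -3.41 for Pou4f2, -2.30 for Irx5, -3.77 for Skor1, -4.94 for Hoxc8, -3.32 for Wt1, -3.12 for Tbx2 and -1.32 for Pnmt. For Wdfy1, Cuedc1, Zfp932, Gabra2, Snapc3 and Ppm1d the 6-week WT arrays lie away from the later WT arrays, and what sets them apart was not tested.

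In the 8 genes of chromosome 11 looked at in all arrays (12 probe sets, 36 groups of 4 or 6 arrays), 6 single arrays lay far from the rest of their group by Dixon's test, which flags about 1 group in 20 by chance. WT array 4 of 3 months was at -0.45 for Gdpd1, where the other WT arrays lay between 0.41 and 0.58, at 0.44 for Cuedc1, against -0.43 to -0.37, and at 0.35 for Dgke, against -0.08 to -0.06. dKO array 2 of 6 months was at -0.15 for Taf15, against -1.06 to -0.86 in the other dKO arrays of that age. dKO array 6 of 6 months was at -0.51 for 1 Ppm1d probe set, against -0.13 to 0.02, and WT array 1 of 6 months was at 0.00 for Cuedc1, against -0.24 to -0.21.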

How the results depend on the processing

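With quantile normalization 41 probe sets were called higher and 54 lower at 6 weeks, 16 lay on chromosome 11, 3 of the late-rising probe sets were called, and 14 and 275 effects differed from 3 and 6 months. Median centring gave 42, 31, 19, 6, 7 and 270. In the same order, a trended robust fit gave 33, 33, 18, 4, 2 and 204, and Xist as a covariate 85, 75, 25, 6, 10 and 533. The cortical marker median as a covariate gave 32, 18, 12, 3, 4 and 527, and the added thalamic marker covariate 23, 30, 16, 4, 4 and 76. The probe set with the largest SD for each gene gave 25, 18, 10, 5, 3 and 212, the mean of a gene's probe sets 17, 13, 7, 2, 5 and 253, and probe sets above the median SD 57, 36, 20, 9, 8 and 295. Array weights gave 2262, 2627, 331, 19, 1247 and 3623, with a weight of 5.32 for dKO array 3, and the 6 arrays alone 8, 4, 1 and 0. With the replicate block, where the animals share only a number, the counts were 9, 5, 8, 1, 2 and 144. Leaving out 1 array at a time gave 8 to 169 higher, 7 to 239 lower, 5 to 36 on chromosome 11, 0 to 24 late-rising, 3 to 15 and 146 to 288. The cause of these shifts was not tested, beyond the fewer arrays or probe sets that some settings hold.

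The signs of the named calls held in 18 alternatives, except for Snapc3, at 0.47 with the largest-SD probe set, and Dgke, at -0.44 with it and -0.093 with the mean. In the fits that leave out 1 array the sign could not change, as the groups of these calls do not overlap. Cuedc1, Zfp932 and 1 Wdfy1 probe set stayed called in all 18, the main Ezh1 probe set in 12, Cdkn2a in 6 and Homer1 in 4. The smallest permutation p over the quality measures was 0.1 after quantile normalization and 0.2 without dKO array 3. Each is the lowest value that the number of arrays allows, so the change from 0.1 to 0.2 says nothing about array quality. A filter on dim probe sets could not be run on centred values, so signal over background limits these results to an unknown degree.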

Other observations

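The 2 lists of the oligodendrocyte lineage had no call, where 0.202% of all probe sets were called. For 12 oligodendrocyte precursor probe sets the median level was 0.43, 0.07 and 0.19 in the dKO arrays, against 0.02, -0.03 and 0.01 in the WT arrays, and 7 of the 12 had dKO arrays above all WT arrays, against 7.43% of all probe sets. Their largest difference was that of Bmp4, a bone morphogenetic protein (0.54 ± 0.20, adjusted p 0.372 in limma). For 32 oligodendrocyte probe sets the median level was 0.77, 0.11 and 0.50 in the dKO arrays, against 0.31, 0.27 and 0.31 in the WT arrays, with the enzyme Ugt8a of myelin lipid synthesis at 0.57 ± 0.25 (adjusted p 0.507). dKO array 1 was the highest array in both lists.

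Of 41 activity-induced probe sets, 1 was called lower, against 0.0918% of all probe sets. It was that of Homer1, a postsynaptic scaffold protein gene (-0.73 ± 0.15, adjusted p 0.0472). Of the 41, 16 had dKO arrays below all WT arrays, against 10.1% of all probe sets. Of 91 synaptic and excitability probe sets only the 2 of Gabra2 were called, against 0.202% of all probe sets. No call was found among 40 PRC1 probe sets (median -0.01, the largest change that of Cbx7 at -0.35 ± 0.09, adjusted p 0.12), 43 of interferon and antigen presentation (median 0.08, Ifit3 at 0.45), 8 of complement (median 0.11, C1qb at 0.16), 25 endothelial and mural (median -0.05, Cldn5 at -0.40), 26 ependymal and choroid plexus (median -0.14, Tmem212 at -0.78), 22 interneuron (median -0.01, Calb2 at 1.31) or 15 dopaminergic, septal and hypothalamic probe sets (median 0.07, Zic2 at 0.63). Calb2 is also a member of the thalamic or pallidal neuron list. With 0.202% of all probe sets called, no call in lists of this size does not set them apart.

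Of 6907 probe sets without a single gene symbol, 4 were called higher and 4 lower at 6 weeks when the whole table was adjusted together.

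The differences of the dKO arrays from the WT mean over all 38143 probe sets, which share that mean, had correlations of 0.14 between arrays 1 and 2, 0.24 between arrays 1 and 3 and 0.69 between arrays 2 and 3.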
